A study of Homo sapiens with 5 samples.

Results

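The genes described here encode LBR, the lamins and their partners at the inner nuclear membrane. They are LBR, LMNA, LMNB1, LMNB2, EMD, TMPO, BANF1, LEMD3, SUN1 and SUN2, taken by gene symbol from a table of read counts for 18257 genes. All 10 were in the table, and all 10 were among the 12234 genes with enough reads to be tested. LBR was picked because its level after DROSHA siRNA was already known to stand below the mock, so its values are a description and no test of it is given. The other 9 were picked for their place in the same structure.

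The libraries were poly(A) RNA of HEK293, an established line from human embryonic kidney, here in its T-REx Flp-In form with a FLAG-tagged DICER1 insert in all 5 libraries, the mock included. Cells were taken 18 h after transfection with siRNA against DICER1 (2 libraries), with siRNA against DROSHA (2 libraries) or as a mock control (1 library). DICER1 is the cytoplasmic nuclease that cuts microRNA precursors, and DROSHA is the nuclear nuclease that acts before it. The 2 libraries for each enzyme were made with different siRNAs, and the study used DROSHA and mock as controls for the effect of DICER1 loss. Total counts lay between 7620206 and 8736455 per library.

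The nuclear lamina is a mesh of lamin filaments under the inner nuclear membrane. LMNA encodes the A-type lamins A and C, and LMNB1 and LMNB2 encode the B-type lamins. LBR spans the inner membrane, binds B-type lamins and heterochromatin protein 1, and carries a sterol C14 reductase activity used in cholesterol synthesis. LBR and lamin A/C are known as the tethers that hold heterochromatin at the nuclear edge. Emerin (EMD), LAP2 (TMPO) and MAN1 (LEMD3) share a LEM domain that binds BAF, the small chromatin-bridging protein encoded by BANF1. SUN1 and SUN2 cross the inner membrane and form the LINC complex with nesprins, which couples the nucleus to the cytoskeleton.

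The sequences shown for these genes are short sites in 3' UTRs, and whether they act on these genes was not tested. For each siRNA library, all 7-base words held by at least 100 genes were ranked by how low their holders stood against the mock, after removing trends with UTR length, GC content and expression. This ranking left out the 10 genes of the nuclear envelope described here and used 10067 others. The word that came first was AATCTAA in both DICER1 siRNA libraries, ATAGAAT in DROSHA siRNA 1 and GTGACTT in DROSHA siRNA 2. LBR was the only gene of the 10 that held both DROSHA words, TMPO held ATAGAAT, and LEMD3 held AATCTAA. Their 5 sites are given on the mRNA strand, 5′ to 3′, with the word in capitals and its first base counted from the base after the stop codon of the longest 3' UTR in GENCODE 29.
LBR, word starting at base 426: tcagtaagagaATAGAATtttcatttgttt
LBR, word starting at base 915: atagaaaaaaaATAGAATaagtatatattt
LBR, word starting at base 638: tgtaatatatgGTGACTTcagatttttttg
TMPO, word starting at base 1719: ttaaaatttcaATAGAATcaaatgagacaa
LEMD3, word starting at base 667: attttattcatAATCTAAtgtgtgtgtata

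LBR lies on chromosome 1, TMPO and LEMD3 on chromosome 12. The words are common. On the mRNA strand ATAGAAT was in 16.5% of the 10077 3' UTRs scanned, GTGACTT in 16.5% and AATCTAA in 13.9%. The UTRs scanned are 1801 bases long in LBR, 2521 in TMPO and 2002 in LEMD3.

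The targeted mRNAs were low in their own libraries. DICER1 averaged 70.9 ± 4.49 CPM (SD, n = 2) after DICER1 siRNA and stood at 243 CPM in the mock, where CPM is the count scaled to library size with TMM factors. Counts per gene do not separate native DICER1 reads from any reads of the FLAG-tagged insert. DROSHA averaged 41.6 ± 0.514 CPM (SD, n = 2) after DROSHA siRNA and stood at 191 CPM in the mock. In edgeR's quasi-likelihood test, with Benjamini-Hochberg adjustment over all genes, DICER1 had an adjusted p of 0.0260 and DROSHA of 0.000882. In the DROSHA siRNA libraries DICER1 stood at 282 and 333 CPM, 116% and 137% of the mock. Its log2 fold change there was 0.34 ± 0.12 (SE), which did not pass that test (adjusted p = 0.978). DROSHA stood at 195 and 193 CPM in the DICER1 siRNA libraries. All 8 markers listed for HEK293 were detected in every library, 7 of them at 1 CPM or more throughout. Of 9 measured markers of other cell types 7 stayed under 1 CPM, PTPRC had no read, and the globin gene HBB lay between 21.5 and 26.6 CPM. The summed level of those 9 markers was 27.9 and 28.1 CPM after DICER1 siRNA, 23.1 and 24.9 CPM after DROSHA siRNA and 26.5 CPM in the mock. In such bulk libraries, less RNA per cell and fewer cells that hold an RNA cannot be told apart.

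Scaled by length, LMNB1, LBR and LMNB2 were the most abundant of the 10 and SUN2, LMNA and LEMD3 the least. On the scale of CPM per kilobase of merged exons of protein-coding transcripts, the median level over the 5 libraries was 159 for LMNB1, 136 for LBR and 122 for LMNB2. It was 105 for EMD, 94.2 for TMPO, 60.6 for BANF1 and 40.4 for SUN1. LEMD3 stood at 22.4, LMNA at 20.7 and SUN2 at 17.5 on this scale. The ranges over libraries overlapped between LBR and LMNB2, between EMD and TMPO, between LEMD3 and LMNA and between LMNA and SUN2, so those neighbours are not ordered beyond their spread. TMPO has isoforms with different 3' ends, and per kilobase of its longest transcript its level was 160, ahead of LMNB2 and behind LBR.

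**Figure D1:**
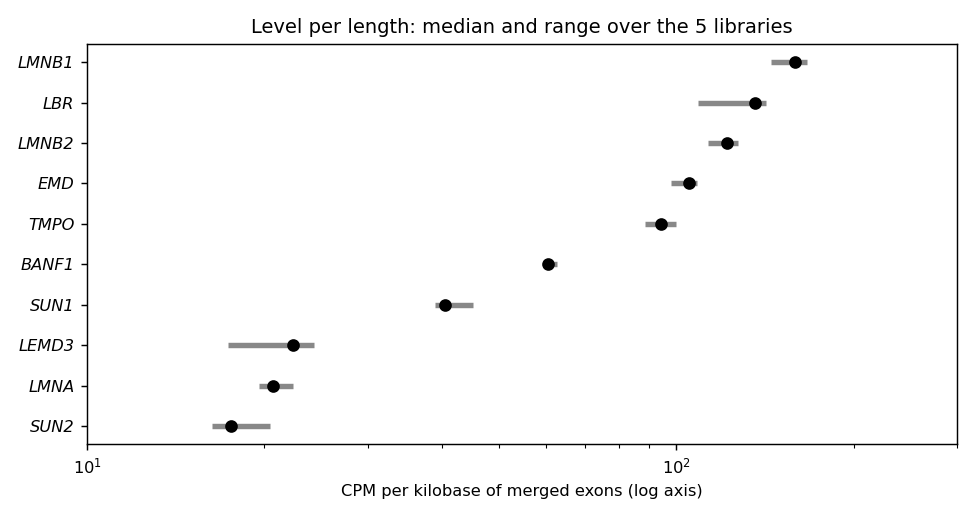
Level of each gene in CPM per kilobase of merged exons of its protein-coding transcripts, on a log axis. Points are medians over the 5 libraries and bars run from the lowest to the highest library. LMNB1 leads at 159 and SUN2 is last at 17.5.

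LBR, the receptor for B-type lamins, stood lower in both DROSHA siRNA libraries than in the other 3. It had 4716 and 5237 counts after DICER1 siRNA 1 and 2, 4294 and 3878 counts after DROSHA siRNA 1 and 2, and 5401 counts in the mock. On the CPM scale these were 617 and 630 after DICER1 siRNA, 493 and 494 after DROSHA siRNA and 642 in the mock. The DICER1 libraries lay at 96.1% and 98.1% of the mock. The DROSHA libraries lay within 0.284% of each other and at 76.7% and 77.0% of the mock. Counting intervals (exact Poisson, 95%, covering counting error only) started at 599.8 and 613 CPM in the DICER1 libraries, ended at 508 and 510 CPM in the DROSHA libraries and started at 625 CPM in the mock. The fitted log2 fold change was -0.38 for DROSHA against mock, -0.04 for DICER1 against mock and 0.34 for DICER1 against DROSHA. LBR was proposed from these libraries, so no p-value is given for it.

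**Figure D2:**
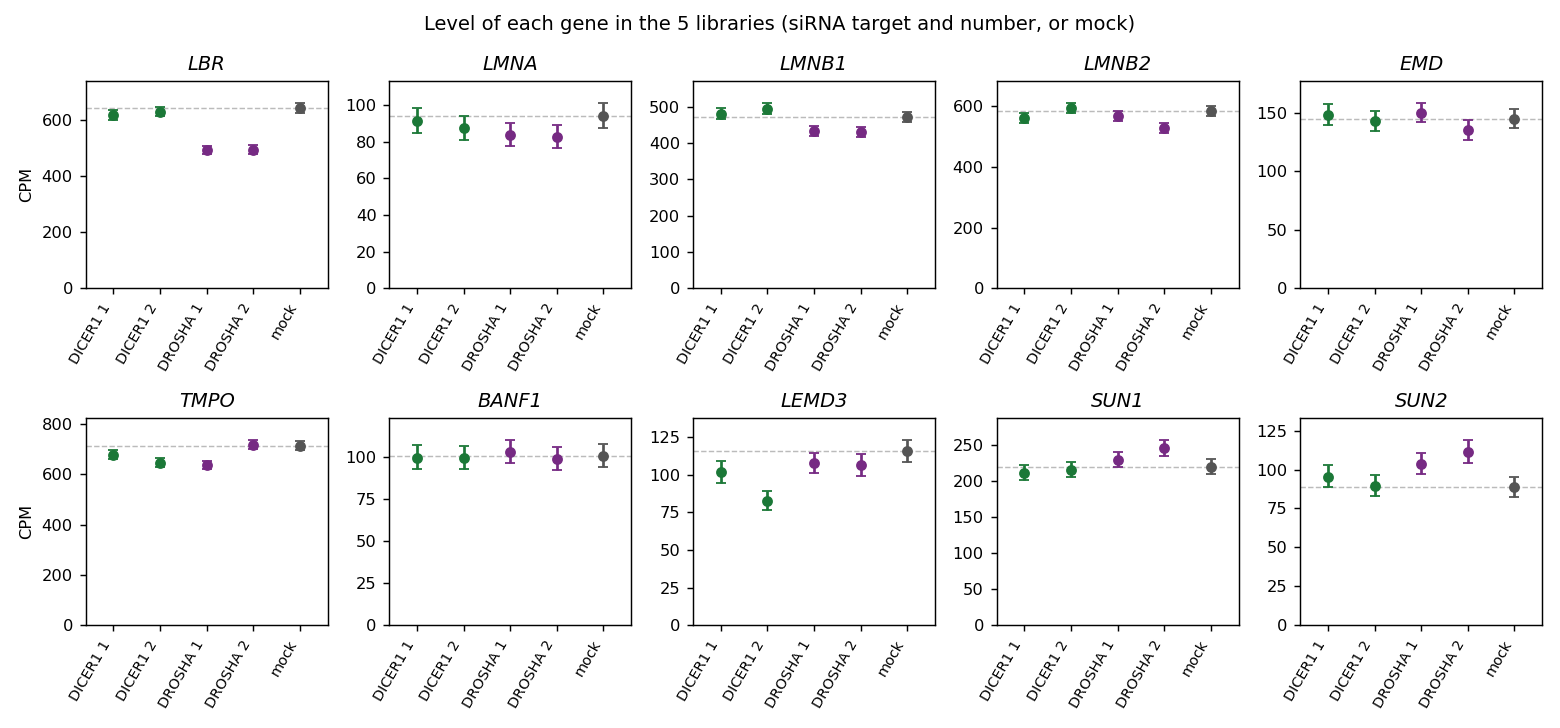
CPM of each gene in the 5 libraries, with DICER1 siRNA 1 and 2 in green, DROSHA siRNA 1 and 2 in purple and the mock in grey. Bars are exact Poisson 95% intervals of the counts, and the dashed line marks the mock. LBR sits at 493 and 494 in the DROSHA libraries and at 642 in the mock.

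A ratio of LBR to another gene in the same library needs no scaling between libraries. LBR reads per LMNA read were 6.76 and 7.21 after DICER1 siRNA, 5.89 and 5.98 after DROSHA siRNA and 6.82 in the mock. LBR reads per read of the 3 lamins together were 0.544 and 0.536 after DICER1 siRNA, 0.454 and 0.474 after DROSHA siRNA and 0.559 in the mock. Against each of the 9 other genes, the LBR ratio was lower in both DROSHA libraries than in any of the other 3 libraries. LBR was picked for its low level after DROSHA siRNA and enters all 9 ratios, so they are a description and not separate evidence. In percent of the mock's ratio, these 9 ratios ran from 65.8% to 86.4% in DROSHA siRNA 1 and from 61.4% to 87.8% in DROSHA siRNA 2. They ran from 89.4% to 109% in DICER1 siRNA 1 and from 93.6% to 137% in DICER1 siRNA 2, with LEMD3 giving the highest value in each.

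**Figure D3:**
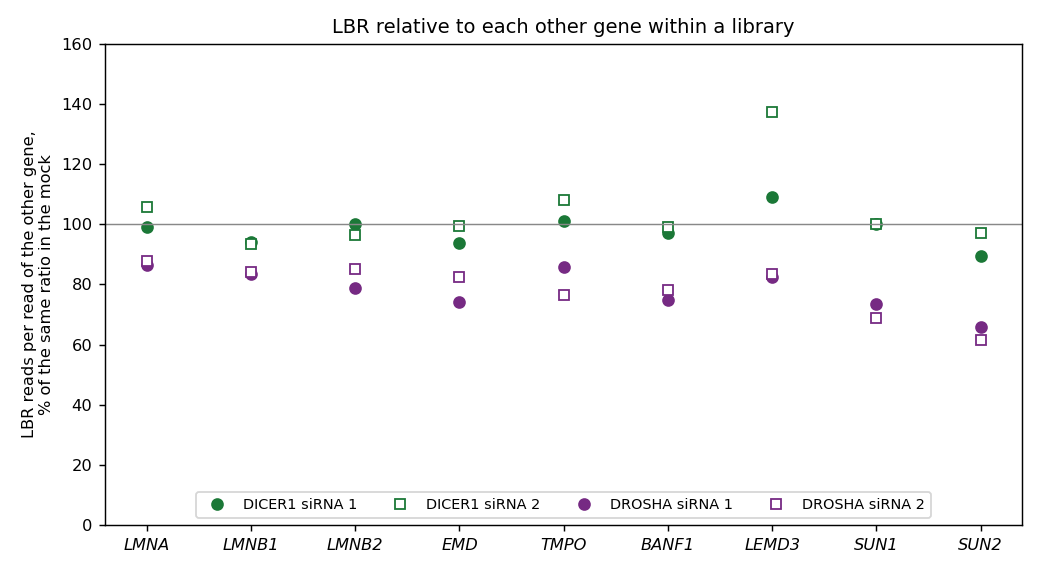
Reads of LBR per read of each other gene within a library, in percent of the same ratio in the mock. Green marks are DICER1 siRNA 1 and 2, purple marks DROSHA siRNA 1 and 2. The purple marks reach 87.8% at most, and the green marks lie between 89.4% and 137%.

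The genes that hold the DROSHA words give the setting of LBR. Medians and counts of holders, here and below, use plain log2 ratios. The trends with UTR length, GC content and expression were removed only for the ranking of words. In DROSHA siRNA 1, holders of ATAGAAT had a median log2 ratio to the mock of -0.087, against 0.011 for the other scanned genes. In DROSHA siRNA 2 the same holders had a median of -0.0011, against 0.0064 for the others. Holders of GTGACTT showed the opposite order, with a median of -0.023 in DROSHA siRNA 1 and -0.095 in DROSHA siRNA 2, against 0.00094 and 0.019 for genes without it. Both words were held by 484 genes, 4.80% of those scanned, and their medians were -0.084 in DROSHA siRNA 1 and -0.080 in DROSHA siRNA 2. The 7234 genes with neither word had medians of 0.013 and 0.018. In DICER1 siRNA 1 and 2, holders of both words stood at -0.038 and -0.023 and genes with neither at 0.0063 and 0.0079. There ATAGAAT holders stood at -0.044 and -0.026, against 0.0049 and 0.0070 for the others. GTGACTT holders stood at -0.016 and -0.0038 in these DICER1 libraries, against -0.00044 and 0.0028 for the others. LBR, at -0.38 in each DROSHA library, stood below the median of the 484 holders of both words. Of these 484, 19, LBR included, were as low as LBR or lower in both DROSHA libraries. So were 17 of the 1179 genes with ATAGAAT alone, 12 of the 1180 with GTGACTT alone and 37 of the 7234 with neither. These words were picked from the same libraries, so their low holders are not independent evidence. An siRNA is known to act on unintended mRNAs through pairing of its 5' end with a 3' UTR. The siRNA sequences are not given in the sources used here, and the part of the words in the level of LBR was not tested.

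The lamin mRNAs lay between 87.7% and 105% of the mock in the siRNA libraries, and no lamin passed the test. LMNB1 had 481 and 494 CPM after DICER1 siRNA, 433 and 431 CPM after DROSHA siRNA and 472 CPM in the mock. Both DROSHA libraries were thus below the mock and both DICER1 libraries above it. Its log2 fold change was -0.13 ± 0.06 (SE) for DROSHA against mock (edgeR adjusted p = 0.978) and 0.05 ± 0.06 for DICER1 against mock (edgeR adjusted p = 0.943). DICER1 against DROSHA gave 0.18 ± 0.05, with a 95% interval from 0.05 to 0.30 and an unadjusted p of 0.0131 in edgeR that did not pass over all genes (adjusted p = 0.504). LMNB1 holds none of the 3 words.

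LMNA had 91.4 and 87.4 CPM after DICER1 siRNA, 83.7 and 82.6 CPM after DROSHA siRNA and 94.2 CPM in the mock. All 4 siRNA libraries were below the mock, the DROSHA pair lowest. The log2 fold change of -0.18 ± 0.10 for DROSHA against mock had a 95% interval from -0.41 to 0.05 (edgeR adjusted p = 0.978). For DICER1 against mock it was -0.08 ± 0.10 (edgeR adjusted p = 0.943). LMNB2 had 561 and 593 CPM after DICER1 siRNA, 569 and 529 CPM after DROSHA siRNA and 584 CPM in the mock. The counting intervals of its 2 DROSHA libraries did not overlap, and only the DROSHA pair lay wholly below the mock. Its log2 fold changes were -0.09 ± 0.07 for DROSHA and -0.02 ± 0.07 for DICER1 against mock (edgeR adjusted p = 0.978 and 0.989). The value for DROSHA was -0.15 without DROSHA siRNA 1 and -0.04 without DROSHA siRNA 2. LMNA made up 8.06% and 7.43% of lamin reads after DICER1 siRNA, 7.71% and 7.93% after DROSHA siRNA and 8.19% in the mock.

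Among the LEM domain genes, the counting intervals did not overlap between the 2 DICER1 siRNAs for LEMD3 and between the 2 DROSHA siRNAs for TMPO. These intervals cover counting error only, and the share of all genes with such a gap was not counted. The same limit holds for the gap in LMNB2. LEMD3 encodes MAN1, which also binds SMAD proteins and restrains TGF-beta signalling. It had 102 and 82.7 CPM after DICER1 siRNA 1 and 2, 108 and 107 CPM after DROSHA siRNA 1 and 2 and 116 CPM in the mock. DICER1 siRNA 2 was the lowest library, at 71.4% of the mock, and DICER1 siRNA 1 came next at 88.0%. The log2 fold change of -0.33 ± 0.13 for DICER1 against mock had a 95% interval from -0.65 to -0.0057 and an unadjusted edgeR p of 0.0471, which missed the threshold after adjustment (adjusted p = 0.865). Leaving out DICER1 siRNA 2 gave -0.18, and leaving out DICER1 siRNA 1 gave -0.49. AATCTAA, the word LEMD3 holds, had holders at a median log2 ratio of -0.081 in DICER1 siRNA 1 and -0.12 in DICER1 siRNA 2, against 0.0071 and 0.017 for genes without it. In the DROSHA libraries its holders stood at -0.043 and -0.0046. The part of the word in the level of LEMD3 was not tested.

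TMPO encodes the LAP2 proteins, of which some are anchored in the inner membrane and LAP2-alpha is free in the nucleoplasm. It had 677 and 646 CPM after DICER1 siRNA 1 and 2, 637 and 717 CPM after DROSHA siRNA 1 and 2 and 713 CPM in the mock. DROSHA siRNA 1 was the lowest library, at 89.3% of the mock, and DROSHA siRNA 2 was level with the mock at 100.6%. The counting intervals of these 2 DROSHA libraries were 620 to 654 CPM and 699 to 736 CPM. TMPO holds the leading word of DROSHA siRNA 1 and not that of DROSHA siRNA 2, and the part of this word in its level was not tested. Its log2 fold change was -0.07 ± 0.08 for DROSHA against mock and -0.11 ± 0.08 for DICER1 against mock (edgeR adjusted p = 0.981 and 0.912).

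EMD had 148 and 143 CPM after DICER1 siRNA, 150 and 135 CPM after DROSHA siRNA and 145 CPM in the mock. BANF1 had 99.6 and 99.4 CPM after DICER1 siRNA, 103 and 98.8 CPM after DROSHA siRNA and 100.5 CPM in the mock. In both genes the libraries surrounded the mock or lay close to it. The 95% interval of the log2 fold change against the mock ran from -0.23 to 0.25 for EMD and from -0.24 to 0.21 for BANF1 after DICER1 siRNA. After DROSHA siRNA it ran from -0.27 to 0.22 for EMD and from -0.22 to 0.23 for BANF1.

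**Figure D4:**
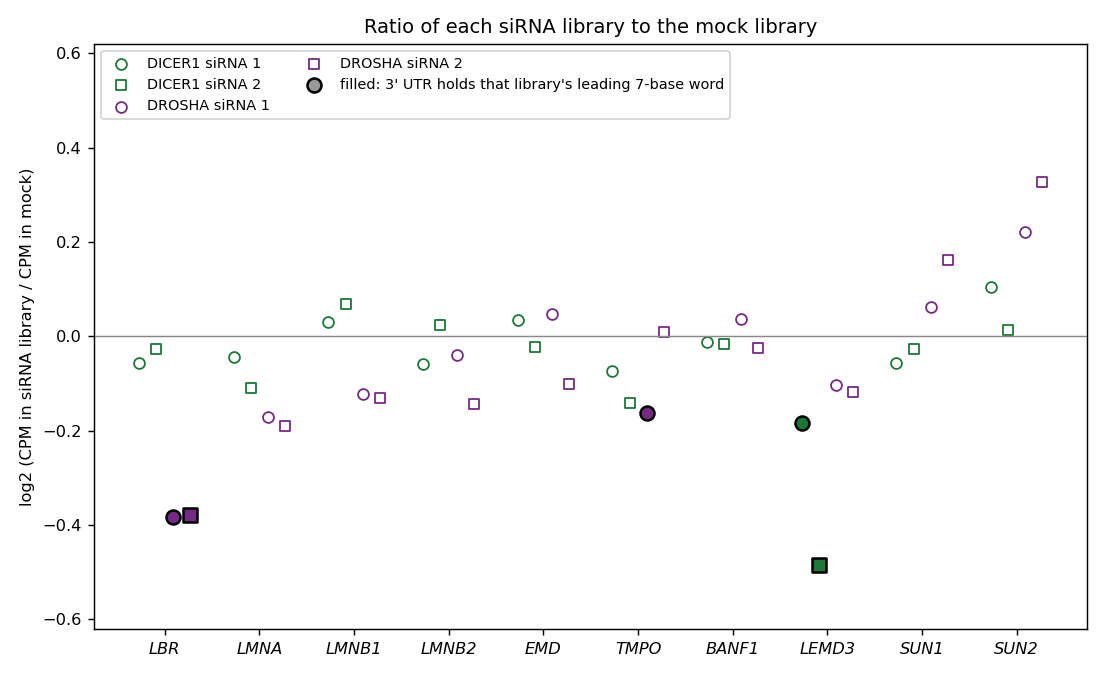
Log2 ratio of CPM in each siRNA library to CPM in the mock, for each gene. Circles are siRNA 1 and squares siRNA 2, green for DICER1 and purple for DROSHA. Filled marks show where the 3' UTR of the gene holds the leading 7-base word of that library. The 5 filled marks lie between -0.49 and -0.16 and the 35 open marks between -0.19 and 0.33.

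Set out by gene and siRNA library, 5 of the 40 ratios to the mock belong to a gene that holds the leading word of that library. These 5 come from LBR, LEMD3 and TMPO and lay between -0.49 and -0.16 on the log2 scale. The 2 LBR ratios among them were part of why LBR was picked. Without LBR the 3 ratios of holders, 2 of them from LEMD3, were -0.49, -0.18 and -0.16, with a median of -0.18. The 33 ratios of genes other than LBR that did not hold the word of that library lay between -0.19 and 0.33. The range of the 3 holders overlaps this one. The median of the 33 was -0.02, and 20 were below the mock. Of all scanned genes without the leading word, 48.1% and 46.1% were below it in DICER1 siRNA 1 and 2. In DROSHA siRNA 1 and 2 these shares were 46.7% and 45.2%. The ratios share a single mock library, so they are given as a description.

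The SUN genes were the only members above the mock in both DROSHA libraries, where 31.5% of all genes stood. SUN2 had 95.6 and 89.6 CPM after DICER1 siRNA, 104 and 111 CPM after DROSHA siRNA and 88.8 CPM in the mock. All 4 siRNA libraries were above the mock, and the DROSHA pair was the highest, at 117% and 125% of the mock. The log2 fold change of 0.27 ± 0.11 for DROSHA against mock had a 95% interval from 0.02 to 0.53 and an unadjusted edgeR p of 0.0374, which did not pass over all genes (adjusted p = 0.978). In DICER1 against DROSHA it was -0.22 ± 0.09, and edgeR gave an adjusted p of 0.583. SUN1 had 211 and 216 CPM after DICER1 siRNA, 230 and 246 CPM after DROSHA siRNA and 220 CPM in the mock. Its log2 fold change was 0.11 ± 0.08 for DROSHA against mock and -0.15 ± 0.07 for DICER1 against DROSHA (edgeR adjusted p = 0.978 and 0.610). Against the mock it was 0.16 without DROSHA siRNA 1 and 0.06 without DROSHA siRNA 2. SUN1 reads per SUN2 read were 2.21 and 2.41 after DICER1 siRNA, 2.22 and 2.21 after DROSHA siRNA and 2.48 in the mock. Exons of SUN1 and SUN2 overlap those of neighbouring and antisense genes over 1921 and 1801 bases in GENCODE 29, and the sources used here do not give the strand setting of the counting. Their reads may therefore include reads of those neighbours, and the same holds over shorter overlaps for LMNB2 (303 bases), TMPO (713 bases) and BANF1 (98 bases).

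None of the 9 genes tested passed edgeR's quasi-likelihood test in any comparison, where 0.00817% of all genes passed against the mock for DICER1, 0.00817% for DROSHA and 0.0163% in DICER1 against DROSHA. The only genes that passed were the siRNA targets: DICER1 in the first comparison, DROSHA in the second and both in the third. DESeq2 and edgeR's likelihood ratio test called none of the 9 either. At an unadjusted p under 0.05, LEMD3 alone passed in DICER1 against mock, where 5.46% of all genes did. SUN2 alone passed in DROSHA against mock (3.69% of all genes), and LMNB1 and SUN2 passed in DICER1 against DROSHA (8.34% of all genes). By DESeq2 and by the likelihood ratio test, 0 of the 9 had an unadjusted p under 0.05 in these comparisons. LEMD3 missed it with library totals alone or without DICER1 siRNA 2. SUN2 missed it in both comparisons without DICER1 siRNA 1, DICER1 siRNA 2 or DROSHA siRNA 2, and in DICER1 against DROSHA with the siRNA number as a block. LMNB1 missed it without DICER1 siRNA 1 and without DICER1 siRNA 2. Leaving out an siRNA library leaves only the other siRNA pair to set the spread. The number of all genes under 0.05 then changed as well, and some members reached it only in such refits. Gains and misses there are thus not particular to a gene. In the DICER1 libraries, 2 of the 9 were above the mock in both and 5 below it in both, beside 36.7% and 36.4% of all genes. In the DROSHA libraries, 2 of the 9 were above and 4 below, beside 31.5% and 32.5% of all genes. Between the knockdowns, 2 of the 9 were higher in both DICER1 libraries than in both DROSHA libraries and 3 were lower, beside 20.9% and 20% of all genes. The median log2 fold change of the 9 was -0.02 for DICER1 and -0.07 for DROSHA against mock, and that of all genes 0.00053 and -0.0049. Leaving out DROSHA siRNA 1 raised the number of genes called in DROSHA against mock to 233, where 1 was called with all libraries, and none of the 9 was among them. The single mock limits each comparison with it, and both knockdowns share it.

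**Figure D5:**
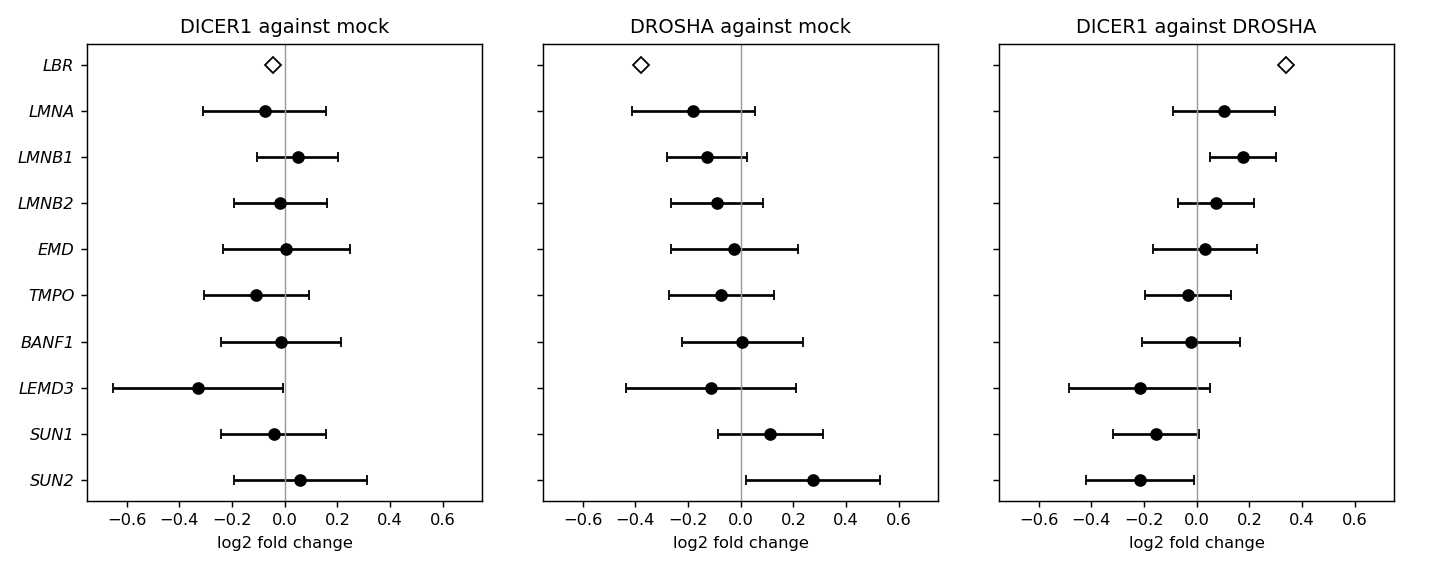
Fitted log2 fold change of each gene in DICER1 against mock, DROSHA against mock and DICER1 against DROSHA. Points with bars are values with 95% intervals from edgeR, and open diamonds are LBR, shown without an interval. LMNB1 and SUN2 lie on opposite sides of 0 in DICER1 against DROSHA, at 0.18 and -0.22.

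MicroRNAs bind mRNAs through their seed, bases 2 to 8, and the lamin A transcript of LMNA is known in mouse to be lowered by miR-9 in the brain. The mature miR-9 and let-7a of RefSeq (GRCh38.p14) are shown with the seed in capitals, beside the matching site in LMNA (chromosome 1) and in LBR, with the match in capitals.
miR-9-5p: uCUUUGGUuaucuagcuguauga
LMNA, match starting at base 293: tctgccttaaaACCAAAGagggcttcctct
let-7a-5p: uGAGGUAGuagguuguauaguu
LBR, match starting at base 859: atttggctttgCTACCTCaattgcaggtgt
The miR-9 match ACCAAAG was also in the 3' UTRs of LMNB2 and EMD and in 15.6% of those scanned. LMNA, LMNB2 and EMD had fitted log2 fold changes of -0.08, -0.02 and 0.0063 for DICER1 against mock and of -0.18, -0.09 and -0.02 for DROSHA against mock, none past the test. The LMNA counts are per gene and do not separate the lamin A transcript from that of lamin C. All scanned holders of the miR-9 match had median log2 ratios of -0.015 and 0.00095 in DICER1 siRNA 1 and 2. Genes without it had -0.0012 and 0.0016. In DROSHA siRNA 1 and 2 the holders had -0.022 and -0.0034, and genes without it 5.1e-05 and 0.0071. LBR was the only member with the let-7 match CTACCTC, which 12.1% of scanned 3' UTRs held, and TMPO the only member with the miR-17 match GCACTTT, held by 26.9%. In DICER1 siRNA 1 and 2, let-7 holders had medians of 0.0025 and 0.0070, against -0.0037 and 0.00084 for the others. For miR-17 these were -0.00069 and 0.012, against -0.0036 and -0.0024. In DROSHA siRNA 1 and 2, let-7 holders had -0.0059 and 0.0090, against -0.0033 and 0.0046. For miR-17 these were -0.0017 and 0.030, against -0.0041 and -0.0030. The table has no microRNA levels, so whether these microRNAs were present in the cells or lost is not measured.

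The genes whose profile over the 5 libraries was most like that of LBR were MBNL3, EPB41L1, C1orf52, FGF13 and PLEKHO1. They had the smallest root mean square difference from LBR in mean-centred log2 CPM, from 0.0381 to 0.0465, taken over genes averaging 20 CPM or more. MBNL3, a splicing regulator of the muscleblind family, had 48.95 and 51.6 CPM after DICER1 siRNA, 41.7 and 42.1 CPM after DROSHA siRNA and 54.2 CPM in the mock. C1orf52 had 58.9 and 58.8 CPM after DICER1 siRNA, 48.9 and 45.0 CPM after DROSHA siRNA and 63.0 CPM in the mock. FGF13, an intracellular member of the fibroblast growth factor family, had 30.0 and 28.5 CPM after DICER1 siRNA, 24.2 and 23.3 CPM after DROSHA siRNA and 29.4 CPM in the mock. MBNL3, C1orf52 and FGF13 hold both DROSHA words, in UTRs of 10349, 661 and 18119 bases, beside 4.80% of all scanned genes. EPB41L1 and PLEKHO1 hold neither. EPB41L1, a membrane skeleton protein of the band 4.1 family, had 27.9 and 28.3 CPM after DICER1 siRNA, 21.4 and 22.6 CPM after DROSHA siRNA and 26.996 CPM in the mock. PLEKHO1 had 25.3 and 27.3 CPM after DICER1 siRNA, 21.7 and 21.2 CPM after DROSHA siRNA and 26.0 CPM in the mock. These 5 genes were picked for a profile like that of LBR, so their low DROSHA levels follow from that choice. The words were picked from the same libraries, and their part in these levels was not tested.

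LBR shares its reductase step with TM7SF2 in cholesterol synthesis. TM7SF2 had 11.3 and 14.6 CPM after DICER1 siRNA, 11.6 and 10.1 CPM after DROSHA siRNA and 15.1 CPM in the mock, below the mock in all 4 siRNA libraries. Its log2 difference in DROSHA against mock was -0.48 ± 0.21, with an adjusted p of 0.978 from edgeR. Of 11 tested sterol enzymes that act beside LBR, none passed the test, nor did any by DESeq2 or edgeR's likelihood ratio test, and 1 had an unadjusted p under 0.05 in DROSHA against mock, where 3.69% of all genes did. In that comparison 9 were below the mock in both DROSHA libraries and none above, beside 32.5% and 31.5% of all genes, with a median log2 fold change of -0.15. For DICER1 against mock 7 were below and 1 above, beside 36.4% and 36.7% of all genes, with a median of -0.11. CYP51A1, the demethylase that acts just before LBR, had only 66 counts in the mock and was at -0.65 ± 0.24 and DHCR7, the last reductase of the route, at -0.21 ± 0.12 for DROSHA against mock (edgeR adjusted p = 0.978 for both). HSD17B7, a later ketoreductase of the route, was at -0.31 ± 0.21 for DICER1 against mock (edgeR adjusted p = 0.882).

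Of 14 tested genes among the other inner membrane and LINC proteins, none passed the test or was called by the other tools, and 1 had an unadjusted p under 0.05 in each comparison with the mock, beside 5.46% of all genes for DICER1 and 3.69% for DROSHA. In the DICER1 libraries, 5 were above the mock in both and 6 below, beside 36.7% and 36.4% of all genes, with a median log2 fold change of -0.01. In the DROSHA libraries, 5 were above and 3 below, beside 31.5% and 32.5% of all genes, with a median of 0.03. SYNE2, the nesprin that binds SUN proteins, had 144 and 165 CPM after DICER1 siRNA, 128 and 114 CPM after DROSHA siRNA and 124 CPM in the mock. The log2 fold change of SYNE2 was 0.32 ± 0.12 for DICER1 against mock (edgeR adjusted p = 0.865). NEMP1, an inner membrane protein listed in the table under its older symbol TMEM194A, had 240 and 273 CPM after DICER1 siRNA, 222 and 176 CPM after DROSHA siRNA and 243 CPM in the mock. Both DROSHA libraries were below the other 3, and the log2 fold change for DROSHA against mock was -0.29 ± 0.15 (edgeR adjusted p = 0.978). ANKLE1, a LEM domain nuclease, had only 26 counts in the mock and stood at 0.75 ± 0.29 for DROSHA against mock (edgeR adjusted p = 0.978). TMEM43, which encodes the membrane protein LUMA, was at 0.16 ± 0.11 for DICER1 against mock, and NEMP2, in the table as TMEM194B, at -0.36 ± 0.23 for DROSHA against mock.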

How the data were processed

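The authors deposited raw read counts per gene symbol for 5 libraries, whole numbers with no normalization. The submitters' processing notes name build hg19 and the tools HTSeq, STAR, edgeR and CASAVA 1.8.2, without their roles. A gene was tested where 2 or more libraries reached 1 CPM, which left 12234 of 18257. R 4.3.3 and edgeR 4.0.16 were used for TMM scaling and the quasi-likelihood test, with no term but group, all libraries in 1 fit and Benjamini-Hochberg adjustment over all tested genes at 0.05. Because the mock is a single library, only the 2 siRNA pairs inform the spread (2 residual degrees of freedom). Separate cultures are not stated in the labels, and the p-values cover no more than the spread among these libraries.

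The members and lists were chosen with earlier results of these data known. Named genes are the 10 members, the targeted genes, up to 3 genes of each list with the smallest unadjusted p in either comparison with the mock, and the 5 genes most like LBR. The words were ranked on 15790 words in 3' UTRs of at least 50 bases, in genes averaging 5 CPM or more, by the mean residual log2 ratio of their holders, weighted up with the number of holders as a standard error would. The longest 3' UTR per gene came from GENCODE 29 on GRCh38, so no genome coordinates are given. Only the mRNA strand was searched. The fit and the ranking were tested on simulated data. DESeq2 1.42.0 and other settings were tried as alternatives. BANF1 and TMPO have 5 and 2 named pseudogenes in GENCODE 29, which can take or give reads.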

Additional observations from a re-analysis of the deposited data

How the results depend on the processing

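None of the 9 tested members was called under any of the 11 alternatives, and the fitted log2 fold change of LBR stayed between -0.38 and -0.36 for DROSHA against mock. The number of all genes called was less steady. In DICER1 against mock it was 1, and 3 without the filter, 29 by edgeR's likelihood ratio test, 5 by DESeq2 and from 0 to 7 when a library was left out. In DROSHA against mock it was 1, and 3 by the likelihood ratio test and from 1 to 233 when a library was left out. In DICER1 against DROSHA it was 2, and 12 without the filter, 130 by the likelihood ratio test, 24 by DESeq2 and from 1 to 462 when a library was left out. Leaving out DROSHA siRNA 1 gave 7, 233 and 462 calls in these 3 comparisons, DROSHA siRNA 2 gave 7, 20 and 33, DICER1 siRNA 1 gave 0, 1 and 5, and DICER1 siRNA 2 gave 0, 1 and 1. With the siRNA number as a replicate block, 3 genes were called in DICER1 against DROSHA, none a member. The numbers do not pair the libraries, since a number names a different siRNA for each target, and the differences between siRNA 1 and 2 had a correlation of 0.0214 over 10615 genes between the targets.

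Of 290 refitted values of the members, 11 changed sign, all from values of 0.074 or less in size. With library totals alone LMNB2 and BANF1 stood at 0.0027 and 0.0049 for DICER1 against mock. With a library left out, DICER1 against mock ran from -0.058 to 0.020 for LMNB2 and from -0.025 to 0.034 for EMD. DROSHA against mock ran from -0.10 to 0.048 for EMD, from -0.16 to 0.0060 for TMPO and from -0.027 to 0.037 for BANF1. DICER1 against DROSHA ran from -0.041 to 0.11 for EMD, from -0.12 to 0.056 for TMPO and from -0.051 to 0.0098 for BANF1. Leaving out a library also moved values that kept their sign by over 1.5 times, from 0.03 to 0.07 for LMNB1, from -0.11 to -0.04 for LMNA and from 0.0098 to 0.11 for SUN2 in DICER1 against mock, and from 0.02 to 0.13 for LMNB2 and from -0.38 to -0.07 for LEMD3 in DICER1 against DROSHA. The causes were not tested. Settings for the words and lengths, mean of at least 20 CPM and the longest transcript, were chosen after seeing the data.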

Other observations

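Lamins are farnesylated, cut and methylated before they join the lamina. Of 6 tested enzymes of these steps none passed the quasi-likelihood test of edgeR, and 2 had an unadjusted p under 0.05 in DICER1 against mock and 1 in DROSHA against mock, where 5.46% and 3.69% of all genes did. DESeq2 and edgeR's likelihood ratio test called none of them in those comparisons. FNTA, the shared subunit of the farnesyl and geranylgeranyl transferases, had 64.4 and 61.96 CPM after DICER1 siRNA, 80.9 and 77.5 CPM after DROSHA siRNA and 79.2 CPM in the mock. DICER1 against mock gave -0.33 ± 0.10 on the log2 scale (edgeR adjusted p = 0.865). RCE1, the protease that trims the farnesylated end, had 27.4 and 30.8 CPM after DICER1 siRNA, 28.8 and 29.3 CPM after DROSHA siRNA and 21.9 CPM in the mock, above the mock in all 4. ZMPSTE24, which makes the final cut in prelamin A, had 175 and 155 CPM after DICER1 siRNA, 203 and 139 CPM after DROSHA siRNA and 198 CPM in the mock. Its DROSHA libraries lay on both sides of the mock. FNTB, the other subunit of the farnesyl transferase, had only 24 counts in the mock and stood at -0.52 ± 0.41 for DROSHA against mock.

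Of 24 tested partners in lamina binding and envelope assembly, none passed the test, and 1 had an unadjusted p under 0.05 in each comparison with the mock, beside 5.46% of all genes for DICER1 and 3.69% for DROSHA. DESeq2 and the likelihood ratio test called none there. In the DICER1 libraries, 6 were above the mock in both and 12 below, beside 36.7% and 36.4% of all genes, with a median log2 fold change of -0.01. In the DROSHA libraries, 6 were above and 9 below, beside 31.5% and 32.5% of all genes, with a median of -0.00083. CBX5, which encodes the heterochromatin protein HP1-alpha that LBR binds, had 322 and 292 CPM after DICER1 siRNA, 335 and 340 CPM after DROSHA siRNA and 361 CPM in the mock. KPNB1, the import receptor importin beta, had 1122 and 1150 CPM after DICER1 siRNA, 996 and 1040 CPM after DROSHA siRNA and 1153 CPM in the mock. Its log2 fold change for DROSHA against mock was -0.18 ± 0.05, with an unadjusted edgeR p of 0.0143 that did not pass over all genes (adjusted p = 0.978). The nucleoporin NUP153 was at -0.12 ± 0.07 and the phosphatase CTDNEP1 at -0.18 ± 0.10 for DICER1 against mock. PRR14, which tethers heterochromatin to the lamina, was at 0.24 ± 0.12 and the nucleoporin NUP50 at -0.31 ± 0.20 for DROSHA against mock.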
